A study of Mus musculus with 31 samples.

Results

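The genes followed across all T cell libraries of the series were Cd4, Cd8a and Cd8b1 for the T cell coreceptors, Ptprc for CD45, Ptprcap for a partner protein of CD45, and Sh2d2a for a signalling adaptor of T cells. These 6 genes were named by symbol, with earlier results of these data known. All 6 were present among the 485 genes of the deposited table, and each was measured in 31 libraries. The libraries were made from small pools of 6 to 20 cells, sorted as CD45+ CD11b- CD3+ cells that carried either CD4 or CD8, of the choroid plexus, the tissue in the brain ventricles that secretes cerebrospinal fluid. The mice were C57BL6/J females, and from 4 weeks after birth they were kept for 4 weeks in one of the housing conditions, which were the enriched environment (EE), whose spacious cages held wheels for running and other objects, and the standard environment (SE), whose cages were smaller and held no objects. The groups were CD4 EE (n = 9), CD4 SE (n = 8), CD8 EE (n = 7) and CD8 SE (n = 7), and the labels name no other treatment or allele. The labels say that within an experiment the animals of 1 environment were cage mates, so an effect of the cage cannot be told apart from one of the environment.

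CD4 and CD8 are surface proteins that bind MHC class II and class I molecules beside the T cell receptor and bring the kinase Lck to it. CD8 of most T cells is a pair of an alpha and a beta chain (Cd8a and Cd8b1), although the alpha chain can also pair with itself. CD45 is a phosphatase on nearly all blood-derived cells that removes an inhibitory phosphate from Lck, the Ptprcap protein binds CD45 in the membrane, and the Sh2d2a protein (also called TSAd) is an SH2 domain adaptor that binds Lck and is made more in activated T cells.

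Each value is a count of unique molecular identifiers (UMIs, 1 for each captured RNA molecule) that the authors divided by a size factor of the library, and is called a normalised count here. The titles carry a first number, 1 or 2, which the labels do not explain and which may mark the separate series of experiments that the study describes. The 19 libraries with number 1 held 1910 to 10089 UMIs over the genes of the table. The 12 libraries with number 2 held 7657 to 26395, so many of the comparisons are also given within each number. A gene with 0 UMIs in a library could still have had up to 3 UMIs by counting error, which corresponds to a normalised count between 0.655 and 8.81 depending on the library. Of the 10 T cell marker genes on the list used, 7 were in the table, and their summed normalised count was 42.6 to 98.7 in every library. Of the 10 choroid plexus epithelium markers, Ttr and Enpp2 were in the table with a sum of 74.9 to 312 in every library, and of the 20 myeloid markers only Cst3 (0 to 24.6). Cst3 alone does not show whether myeloid cells were present. The other genes of these lists, and the whole lists for B cells, natural killer cells, red blood cells, endothelium and fibroblasts, were not in the table, so no level can be given for them.

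Cd8b1 and Cd8a lie next to each other on the plus strand of chromosome 6 (GRCm38), at 71322788-71337494 and 71373427-71379173, with 35932 bases between them, and Cd4 lies on the minus strand of the same chromosome at 124864692-124888221. Ptprc spans 112848 bases of chromosome 1 (138062861-138175708, minus strand) and Sh2d2a lies on chromosome 3 (87846755-87855722, plus strand). Ptprcap is a short gene of 3148 bases on chromosome 19 (4153604-4156751, plus strand). In the GENCODE annotation, 26.8% of the exonic bases of Ptprcap are also exonic in Coro1b on the same strand and 76.0% in Rps6kb2 on the other strand, 100% in all. Whether the counting used the strand is not given in the sources used here, so reads of Ptprcap and of these neighbours may not have been separable, and its values are uncertain to that extent. No exonic base of the other 5 genes was shared with another annotated gene.

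**Figure D1:**
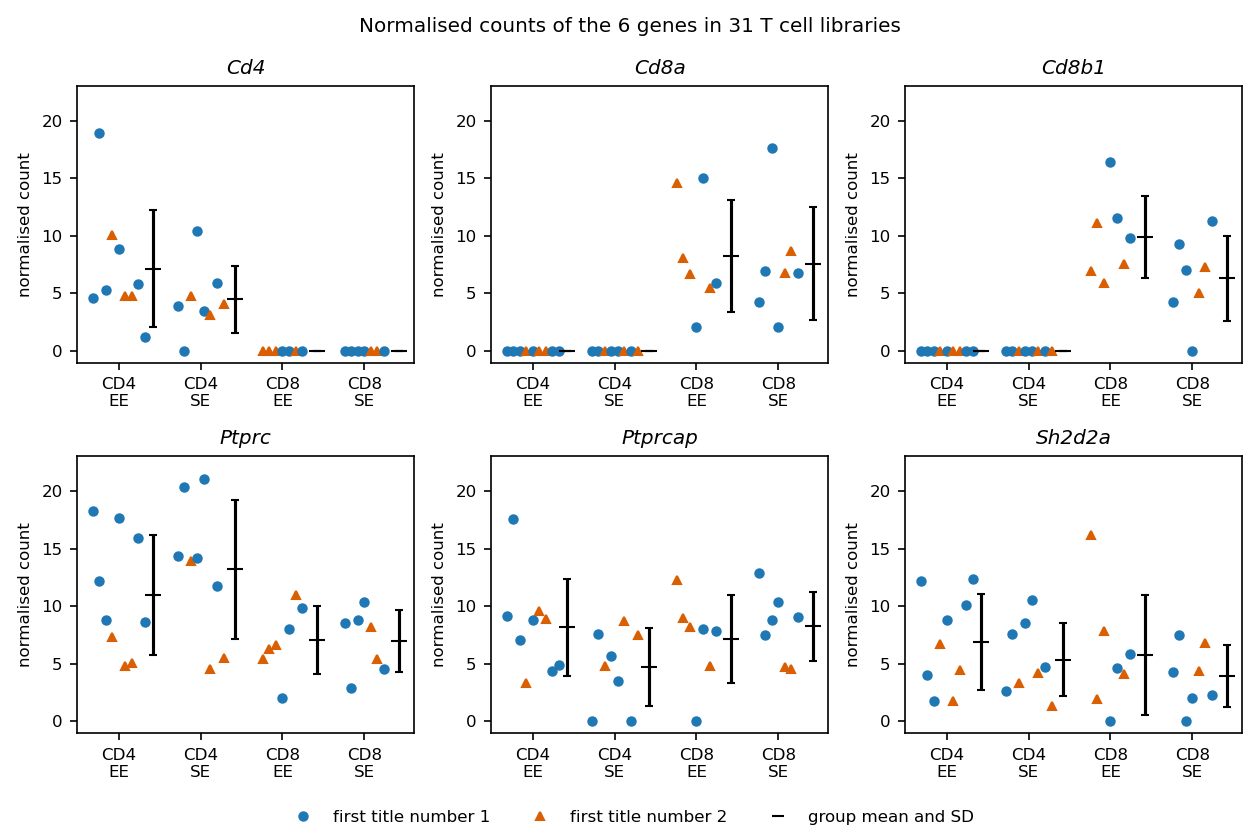
Normalised counts (vertical axis) of the 6 genes in each of the 31 libraries by group (horizontal axis), with circles for first title number 1, triangles for number 2, and the group mean and SD beside the points. Cd8a and Cd8b1 are at 0 in every CD4 library and Cd4 in every CD8 library, and the highest values of Ptprc are in CD4 libraries with number 1, up to 21.1.

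The coreceptor transcripts separated the sorted cell types, which is a description, since the cells were sorted by these proteins. Cd4 was detected in 16 of 17 CD4 libraries and in 0 of 14 CD8 libraries. Cd8a was detected in 14 of 14 CD8 libraries and Cd8b1 in 13 of 14, and both were at 0 in all 17 CD4 libraries because the authors left out CD4 samples with Cd8a or Cd8b transcripts. They also inspected CD4 levels to check purity. In 6 of the 14 CD8 libraries, all with first number 1, a count of 3 UMIs corresponded to more than the median Cd4 level of CD4 libraries (4.79). At the depth of these 6, a count of 0 UMIs could still occur with a Cd4 level of that size.

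Coreceptor transcripts were few in each pool. The 17 CD4 libraries held 119 UMIs of Cd4 in total from 206 sorted cells, or 0.578 per cell, and 7 of them had at most 3 UMIs. The 14 CD8 libraries held 168 UMIs of Cd8a and 169 of Cd8b1 from 183 cells, or 0.918 and 0.923 per cell. Libraries with number 2 gave more UMIs per sorted cell for every coreceptor, with 0.933 against 0.374 for Cd4, 1.54 against 0.437 for Cd8a and 1.49 against 0.485 for Cd8b1. Single libraries of this depth give coarse values, and the deeper libraries with number 2 are the more precise ones.

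Whether EE changed the coreceptor level within the sorted cells was examined first for Cd4. Its normalised count in CD4 EE libraries had a lowest value of 1.23, a median of 5.30 and a highest value of 18.9, and in CD4 SE libraries 0, 4.02 and 10.4. The highest EE library (replicate 2) lay above all SE libraries and the lowest SE library (replicate 2, 0 UMIs) below all EE libraries, while the other values overlapped. The EE mean was 7.14 ± 5.10 (SD, n = 9), and the SE mean was 4.47 ± 2.95 (n = 8). With limma on log2(normalised count + 1), the difference EE minus SE was 0.59 (SE of the estimate 0.43, adjusted p = 0.992), less than the spread between libraries. It was 0.62 within number 1 and 0.53 within number 2. Without SE replicate 2, the library with 0 UMIs of Cd4, it was 0.27. A lower level of a transcript in a pool can come from fewer cells that carry it or from less RNA per cell, which cannot be told apart in any of these values.

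In CD8 cells the levels of the alpha and beta chains were then compared between EE and SE. Cd8b1 had a lowest, median and highest normalised count of 5.87, 9.82 and 16.4 in EE and of 0, 7.04 and 11.3 in SE. Of the EE libraries, 2 lay above all SE libraries, 3 SE libraries lay below all EE libraries, and the rest overlapped. The means were 9.89 ± 3.59 (n = 7) and 6.32 ± 3.67 (n = 7), with a log2 difference of 0.81 (SE 0.42, unadjusted p = 0.0669 and adjusted p = 0.950 with limma). Without SE replicate 4, the library with 0 UMIs of Cd8b1, the difference was 0.38, and it was 1.26 within number 1 and 0.30 within number 2.

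Cd8a, the chain that can also form a pair with itself, moved little between environments. Its values ran from 2.05 through a median of 6.65 to 15.0 in EE and from 2.07 through 6.79 to 17.6 in SE, so the groups overlapped over nearly their whole range. The means of 8.25 ± 4.83 (n = 7) and 7.59 ± 4.91 (n = 7) differed by 0.11 on the log2 scale (SE 0.39, adjusted p = 0.991 with limma, 95% interval -0.69 to 0.91).

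Since both chains were counted in the same library, their ratio does not depend on the size factor. Cd8a made up 44.3% ± 18.0 (SD, n = 7, from 11.1 to 67.9) of the UMIs of both chains in CD8 EE libraries and 59.1% ± 21.1 (n = 7, from 37.5 to 100) in CD8 SE libraries. The value of 100% is SE replicate 4, which rests on 1 UMI (exact 95% binomial interval 2.5 to 100), while EE replicate 2, the deepest library, had 37 UMIs of Cd8a and 51 of Cd8b1 (interval of the share 31.6 to 53.0%). The difference of -14.8 percentage points had an exact permutation p of 0.198, and an adjusted p of 0.297 over the 3 such shares tested. It was -25.3 points within number 1 and -4.61 points within number 2. It was -7.94 points without SE replicate 4, -9.22 points without EE replicate 4, and -8.39 points over libraries with at least 5 UMIs of both chains. The intervals cover counting error only.

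**Figure D2:**
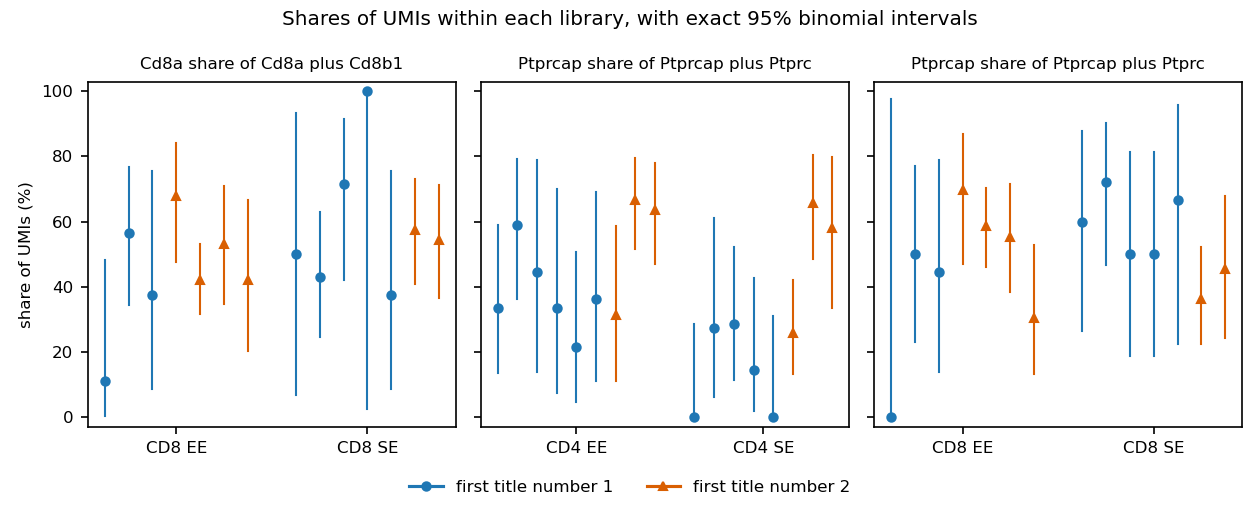
Share of UMIs in each library (vertical axis, %), with circles for first title number 1, triangles for number 2 and lines for exact 95% binomial intervals, for EE and SE libraries (horizontal axis). The left panel gives Cd8a of Cd8a plus Cd8b1 in CD8 libraries, and the middle and right panels give Ptprcap of Ptprcap plus Ptprc in CD4 and in CD8 libraries, where the CD4 SE libraries with number 1 sit between 0 and 28.6%.

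Ptprc was the only one of the 6 genes detected in all 31 libraries. Within each cell type its level did not differ detectably between EE and SE. In CD4 cells the lowest, median and highest normalised counts were 4.79, 8.83 and 18.3 in EE and 4.52, 14.1 and 21.1 in SE. The highest values were in SE replicates 5 and 2, SE replicate 6 (4.52) lay below all EE libraries, and the groups overlapped otherwise. Means were 10.98 ± 5.24 (n = 9) and 13.2 ± 6.01 (n = 8), with a log2 difference of -0.23 (SE 0.33, adjusted p = 0.992 with limma, 95% interval -0.90 to 0.44). In CD8 cells the values were 2.05, 6.65 and 10.98 in EE and 2.90, 8.23 and 10.3 in SE. These ranges nearly coincided, and the means of 7.04 ± 2.96 (n = 7) and 6.98 ± 2.70 (n = 7) differed by -0.013 on the log2 scale (SE 0.34, adjusted p = 0.991, 95% interval -0.71 to 0.69).

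The order of the group means of Ptprc was CD4 SE, CD4 EE, CD8 EE and CD8 SE, where the neighbours of 1 cell type differed by less than their spread and the ranges of CD4 EE and CD8 EE overlapped. Between cell types, the CD4 libraries ran from 4.52 through a median of 12.2 to 21.1 and the CD8 libraries from 2.05 through 7.36 to 10.98. Of the CD4 libraries, 10 of 17 lay above every CD8 library. The means were 12.0 ± 5.55 (n = 17) and 7.01 ± 2.72 (n = 14), and the log2 difference CD4 minus CD8 was 0.66 (SE 0.24, unadjusted p = 0.0080, adjusted p = 0.0706 with limma), which did not pass the threshold of 0.05. The adjusted p was 0.124 with edgeR, 0.0474 without CD4 SE replicate 6 and 0.0446 without CD4 SE replicate 8, so the call depended on single libraries.

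The difference in Ptprc between the cell types was not the same within the first numbers. Within number 1 it was 1.13 (adjusted p = 0.0165 with limma, 11 CD4 and 8 CD8 libraries), and within number 2 it was -0.14 (adjusted p = 0.822, 6 and 6 libraries). CD4 libraries with number 1 had Ptprc values from 8.64 through 14.4 to 21.1, with a mean of 14.8 ± 4.26 (n = 11). CD4 libraries with number 2 had values from 4.52 through 5.30 to 13.9, with a mean of 6.86 ± 3.60 (n = 6). Of the 6 libraries with number 2, 5 lay below all 11 with number 1, and the remaining one was SE replicate 3. CD8 libraries averaged 6.89 ± 3.24 (n = 8) with number 1 and 7.17 ± 2.13 (n = 6) with number 2, so the CD4 libraries with number 1 were those that stood apart. Where the labels gave a CD4 and a CD8 pool the same environment, first number and animal number, the CD4 value was above the CD8 value in 6 of 7 such animals with number 1 and in 1 of 3 with number 2. With number 2 it was 1 of 2 without CD8 SE replicates 5 and 6, whose titles name animal 5 while their descriptions name animals 5 and 6.

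**Figure D3:**
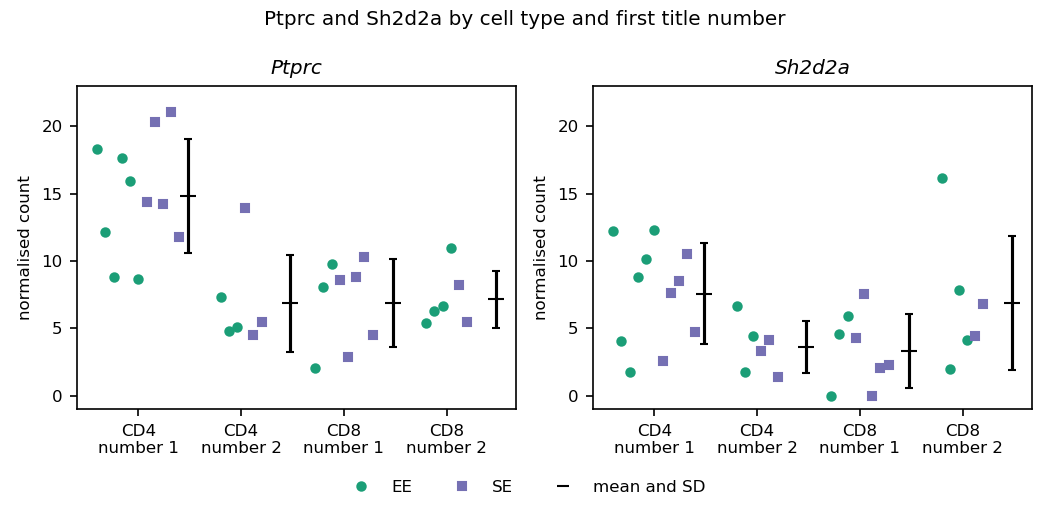
Normalised counts (vertical axis) of Ptprc and Sh2d2a by cell type and first title number (horizontal axis), with circles for EE, squares for SE, and the mean and SD beside the points. Ptprc in CD4 libraries with number 1 averages 14.8 against 6.86 to 7.17 in the other sets.

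A test of the first number was added after these values were seen. In CD4 libraries, with the environment as a term, Ptprc was higher with number 1 than with number 2 by 1.07 on the log2 scale (SE 0.28, adjusted p = 0.0198 with limma), in a comparison that called 25 of 483 genes (5.18%) and 1 of the 4 genes tested here. At an unadjusted p under 0.05 these were 111 genes (23%) and 2 of the 4. The call was lost without CD4 EE replicate 6 (adjusted p = 0.0508), CD4 SE replicate 6 (0.0663) or CD4 SE replicate 8 (0.0649). In CD8 libraries the same difference was -0.17 (SE 0.36, adjusted p = 0.908), and 0 of the 5 genes tested were called against 10 of 484 genes (2.07%), with 0 of 5 and 60 of 484 (12.4%) at an unadjusted p under 0.05. The difference between the 2 cell types was 1.24 (SE 0.44, unadjusted p = 0.0075), and its adjusted p of 0.406 did not pass, in a test that called 2 of 485 genes (0.412%), Malat1 and Ftl1, and gave 34 genes (7.01%) an unadjusted p under 0.05. Sh2d2a also missed the threshold in that test (1.81, SE 0.67, unadjusted p = 0.0094, adjusted p = 0.457).

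Other measures are given by first number beside this. Malat1, a nuclear noncoding RNA named after its values were seen, averaged 199 ± 54.7 (n = 11) in CD4 libraries with number 1 and 5.32 ± 1.88 (n = 6) with number 2, and 1.42 and 3.88 in CD8 libraries with numbers 1 and 2. The summed choroid plexus markers (2 genes) were 131 to 263 in CD4 libraries with number 1 and 76.4 to 200 with number 2, and in CD8 libraries 74.9 to 312 (median 103.1) and 85.8 to 126 (median 99.2). Cst3 in CD4 libraries was 1.18 to 22.9 (median 7.62) with number 1, a range that holds that of number 2 (2.73 to 6.59, median 3.73). The marker levels were not tested between the numbers. Before normalisation the order of Ptprc was the opposite, with 0.809 UMIs per sorted CD4 cell with number 1 and 1.23 with number 2. The part of depth, of these transcripts and of the first number in the level of Ptprc was not tested.

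Ptprcap, whose product partners CD45, gave the lowest unadjusted p among the 4 genes tested for EE vs. SE in CD4 cells. Its lowest, median and highest normalised counts were 3.35, 8.81 and 17.6 in CD4 EE libraries and 0, 5.24 and 8.68 in CD4 SE libraries. Of the EE libraries, 5 of 9 lay above every SE library, and SE replicates 1 and 7 had 0 UMIs, where 3 UMIs would correspond to 3.93 and 3.53. The means were 8.19 ± 4.21 (n = 9) and 4.73 ± 3.36 (n = 8), and the log2 difference was 0.96 (SE 0.45, unadjusted p = 0.0409, adjusted p = 0.992 with limma). The difference was 1.54 within number 1 and -0.026 within number 2, so it was not seen in the deeper libraries. Without SE replicate 1, or without SE replicate 7, it was 0.66.

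In CD8 cells, Ptprcap ran from 0 through 8.07 to 12.3 in EE and from 4.55 through 8.80 to 12.9 in SE. Only EE replicate 4, with 0 UMIs, lay below the SE libraries. The means of 7.17 ± 3.85 (n = 7) and 8.27 ± 2.98 (n = 7) differed by -0.41 on the log2 scale (SE 0.43, adjusted p = 0.991 with limma), and the difference was 0.043 without that library. The difference between the EE effects in CD4 and in CD8 cells was 1.37 (SE 0.66, unadjusted p = 0.0439, adjusted p = 0.976). Restricted to number 1 it was 2.83, and restricted to number 2 it was -0.73. Between the cell types, Ptprcap was 6.56 ± 4.12 (n = 17) in CD4 and 7.72 ± 3.36 (n = 14) in CD8 libraries (log2 difference -0.32, SE 0.34, adjusted p = 0.626), less than the spread. From high to low the group means were those of CD8 SE, CD4 EE, CD8 EE and CD4 SE, and each differed from its neighbour by less than 1 SD.

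The share of Ptprcap among the UMIs of Ptprcap and Ptprc gave the balance of the partners within a library. In CD4 cells it was 43.3% ± 16.1 (n = 9, median 36.4, from 21.4 to 66.7) in EE and 27.4% ± 24.1 (n = 8, median 26.5, from 0 to 65.8) in SE, a difference of 15.8 points with an exact permutation p of 0.127 (0.297 adjusted over the 3 shares). Within number 1 the shares were 38.0% ± 12.7 (n = 6) in EE and 14.0% ± 14.0 (n = 5) in SE, and the difference of 24.0 points had an exact permutation p of 0.0173, or 0.0519 adjusted over the 3 shares, which did not pass. Within number 2 they were 53.8% ± 19.6 (n = 3) and 49.8% ± 21.3 (n = 3), a difference of 4.00 points with an exact p of 0.60, where 3 against 3 libraries cannot reach a p below 0.1. Without CD4 SE replicate 6 the pooled difference was 21.3 points (exact permutation p = 0.0340, adjusted p = 0.102). In CD8 cells the share was 44.0% ± 22.9 (n = 7) in EE and 54.4% ± 12.5 (n = 7) in SE, with a difference of -10.3 points (exact permutation p = 0.337) that was -28.3 within number 1 and 12.5 within number 2. It was -3.01 points without EE replicate 4, whose share of 0% rests on 1 UMI.

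Sh2d2a, the adaptor, was detected in 29 of 31 libraries, with 216 UMIs in all. In CD4 cells its normalised counts were 1.77, 6.70 and 12.3 (lowest, median and highest) in EE and 1.37, 4.44 and 10.5 in SE. Of the EE libraries, 2 lay above all SE libraries, SE replicate 8 (1.37) lay below all EE libraries, and the rest overlapped. The means of 6.92 ± 4.16 (n = 9) and 5.36 ± 3.19 (n = 8) differed by 0.27 on the log2 scale (SE 0.40, adjusted p = 0.992 with limma, 95% interval -0.54 to 1.08). In CD8 cells the values were 0, 4.61 and 16.2 in EE and 0, 4.29 and 7.55 in SE, with means of 5.79 ± 5.23 (n = 7) and 3.91 ± 2.69 (n = 7). The difference of 0.32 (SE 0.54, adjusted p = 0.991) was 0.024 without EE replicate 1, the highest CD8 library.

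Between cell types Sh2d2a overlapped widely. It was 6.19 ± 3.71 (n = 17) in CD4 and 4.85 ± 4.11 (n = 14) in CD8 libraries, with a log2 difference of 0.44 (SE 0.33, adjusted p = 0.439 with limma). It was 0.25 without CD8 EE replicate 4 and 0.28 without CD8 SE replicate 3. The difference was 1.16 within number 1 and -0.62 within number 2, since the mean was 7.58 ± 3.75 (n = 11) and 3.64 ± 1.94 (n = 6) in CD4 libraries with numbers 1 and 2, and 3.33 ± 2.72 (n = 8) and 6.88 ± 4.99 (n = 6) in CD8 libraries. In none of these sets did the first number pass the test for Sh2d2a (adjusted p of 0.194 in CD4 and 0.419 in CD8 cells). The group means fell in the order CD4 EE, CD8 EE, CD4 SE and CD8 SE, and each differed from its neighbour by less than 1 SD.

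Over all of the comparisons the counts of these genes called were low. For EE vs. SE in CD4 cells, 0 of the 4 genes tested passed, where limma called 0 of 483 genes (0%) and edgeR and DESeq2 1 each (0.207%), none of them among the 4. At an unadjusted p under 0.05 there were 1 of the 4 and 18 of 483 genes (3.73%) with limma, 0 and 16 (3.31%) with edgeR, and 0 and 14 (2.9%) with DESeq2. In CD8 cells 0 of 5 genes were called with any of the tools, against 0 of 484 (0%) with each. Unadjusted, 0 of 5 passed with each tool, against 12 genes (2.48%) with limma, 12 (2.48%) with edgeR and 6 (1.24%) with DESeq2.

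For CD4 against CD8, 0 of 3 genes were called with limma, against 36 of 485 (7.42%), and also 0 of 3 with edgeR, against 46 (9.48%), and with DESeq2, against 55 (11.3%). At an unadjusted p under 0.05, 1 of 3 passed with each tool (Ptprc), against 108 genes (22.3%), 114 (23.5%) and 127 (26.2%). Within number 1, 1 of the 3 was called and within number 2, 0 of 3, each against 20 of 485 genes (4.12%). For the difference between the EE effects, 0 of 3 were called, against 0 of 485 (0%) with each tool. Unadjusted, 1 of 3 passed with limma, against 12 genes (2.47%), and 0 of 3 with edgeR and DESeq2, against 9 (1.86%) and 8 (1.65%). The comparisons share libraries and are not independent of each other.

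**Figure D4:**
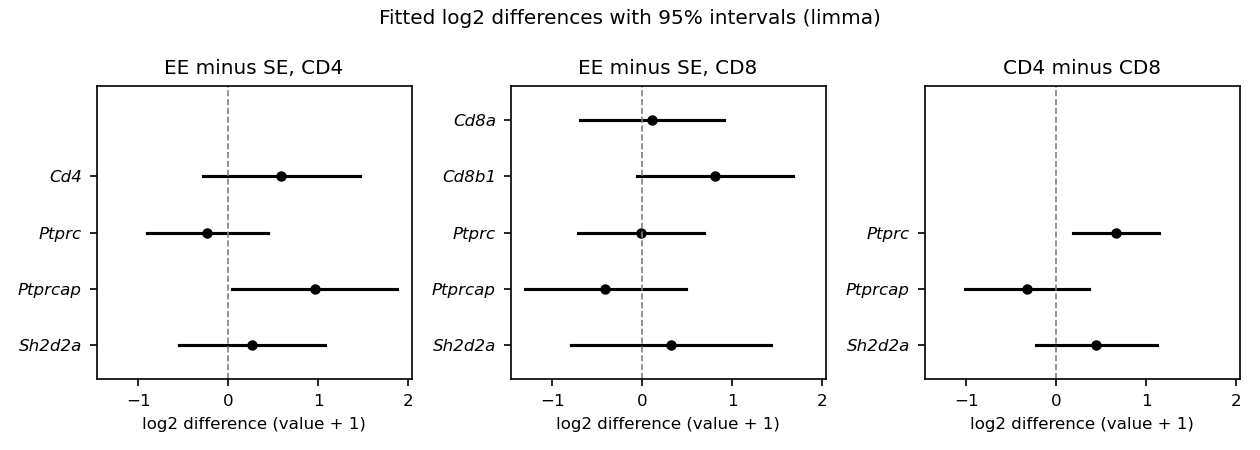
Log2 differences of normalised count + 1 (horizontal axis, point) with 95% intervals from limma (line) for the genes tested (vertical axis) in 3 comparisons. The intervals that leave out 0 are those of Ptprcap for EE minus SE in CD4 cells and of Ptprc for CD4 minus CD8, and neither gene passed after adjustment over all genes.

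Pool-to-pool variation of the genes was compared over libraries of 1 cell type, for 16 pairs of genes. The highest Pearson correlation among these was that of Ptprc and Sh2d2a in CD4 libraries (r = 0.58, permutation p = 0.0153, adjusted p = 0.244, n = 17), with a Spearman correlation of 0.54 (permutation p = 0.0269, adjusted p = 0.431). It was 0.53 without the 2 libraries farthest from the median of Ptprc, 0.46 within number 1 and 0.20 within number 2. The 2 CD8 chains had r = 0.36 and a Spearman correlation of 0.17 over 14 CD8 libraries (permutation p = 0.220 and 0.564, adjusted p = 0.504 and 0.902), and r was 0.27 without the 2 farthest libraries, 0.39 within number 1 and 0.13 within number 2. Cd4 and Ptprc in CD4 libraries had r = -0.069 (permutation p = 0.798, adjusted p = 0.851) and a Spearman correlation of -0.025 (permutation p = 0.928, adjusted p = 0.972). No pair passed after adjustment.

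The genes of the table whose levels tracked each of the 6 most closely are given as a description. They come from Pearson correlations of log2(normalised count + 1) over libraries of both first numbers, which differ in depth. For Cd4 these were Kxd1 (0.75), X2410006H16Rik (0.70) and Gm6061 (0.66) over 17 CD4 libraries. For Cd8a they were Ywhaz (0.85), Hnrnpk (0.81) and Rpl17 (0.76), and for Cd8b1 they were Atp5g2 (0.89), Lime1 (0.83) and Gm13216 (0.80), over 14 CD8 libraries. For the genes found in both cell types the mean of each group was removed first, over 31 libraries. Ptprc was then closest to Malat1 (0.64), Sub1 (0.60) and Map1lc3b (0.60), Ptprcap to the lymphocyte surface protein genes Ly6e (0.52), Cd52 (0.51) and Ly6a (0.51), and Sh2d2a to Rgs1 (0.59), Ywhab (0.54) and Eif4a3 (0.51). The mean of each first number was not removed. In CD4 libraries with numbers 1 and 2, Ptprc averaged 14.8 and 6.86 and Malat1 199 and 5.32. Correlations with these other genes within the numbers were not calculated.

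The genes around the coreceptors in T cell receptor signalling were examined as a list of 82 genes, of which 23 were in the table. For CD4 against CD8 cells, 1 of 23 was called higher and 0 lower, against 36 of 485 genes (7.42%) in either direction, with a median log2 difference of 0.12 over the list and 0.072 over all 485 genes. The gene called was Cd44, which encodes a receptor for hyaluronan that rises on antigen-experienced T cells. Its normalised count ran from 1.77 through 5.69 to 9.37 in CD4 libraries (5.61 ± 2.36, n = 17). In CD8 libraries it ran from 0 through 1.66 to 4.52 (1.95 ± 1.60, n = 14), with 3 libraries at 0. A count of 3 UMIs corresponded to 0.655 to 6.79 in CD8 libraries, so these values are coarse. Of the CD4 libraries, 11 of 17 lay above every CD8 library. The log2 difference was 1.30 (SE 0.29, adjusted p = 0.0019 with limma). Within number 1 it was 1.00, and within number 2 it was 1.62. The difference of Cd44 was thus above 0 within both first numbers, whereas that of Ptprc was above 0 within number 1 and below 0 within number 2, and whether the genes differ in this was not tested.

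Other genes of the list did not pass between the cell types. The smallest p values after that of Cd44 were those of Icos, a costimulatory receptor (0.63, SE 0.28, adjusted p = 0.159), and Trbc2, a constant region of the T cell receptor beta chain (0.35, SE 0.28, adjusted p = 0.466), on the higher side. On the lower side they were those of Thy1, a T cell surface glycoprotein (-0.53, SE 0.24, adjusted p = 0.178), Cd3d, a chain of the receptor complex (-0.36, SE 0.19, adjusted p = 0.274), and Ptpn6, a phosphatase that dampens receptor signalling (-0.65, SE 0.37, adjusted p = 0.311). Lck, the kinase that both coreceptors bind, was nearly level, with 11.8 ± 5.79 in CD4 and 10.8 ± 4.22 in CD8 libraries (log2 difference 0.026, SE 0.24, adjusted p = 0.961). Icos shared the direction of Ptprc within the numbers, with 0.96 within number 1 and -0.064 within number 2.

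**Figure D5:**
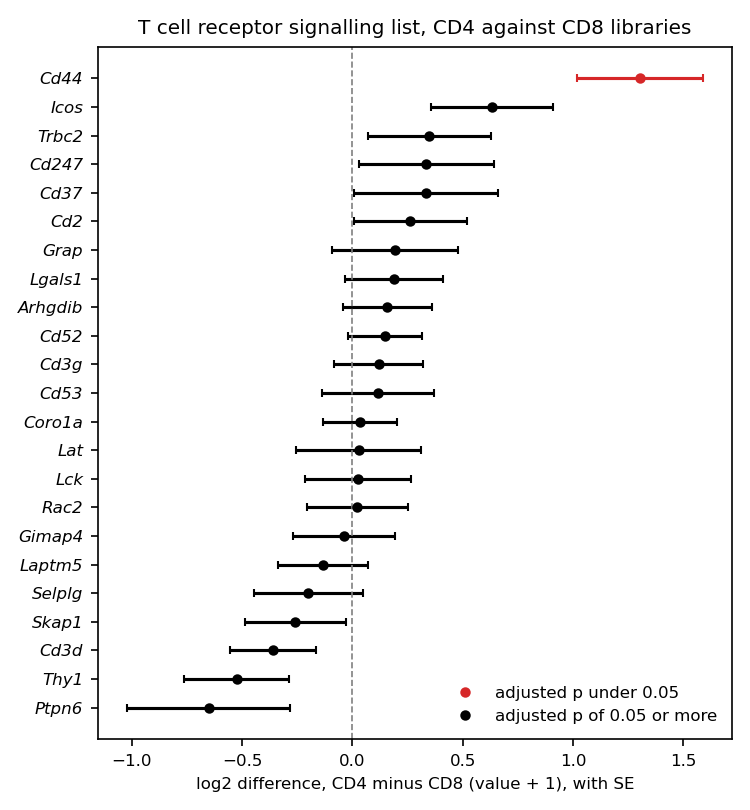
Log2 difference of normalised count + 1, CD4 minus CD8 libraries (horizontal axis), with the standard error as a bar, for the 23 genes of the T cell receptor signalling list in the table (vertical axis). Cd44, at 1.30, is the gene with an adjusted p under 0.05.

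For EE vs. SE, 0 of the 23 list genes were called in either cell type. In CD4 cells 2 of 23 had an unadjusted limma p under 0.05, both lower in EE (Selplg and Arhgdib), against 18 of 483 genes (3.73%). In CD8 cells 0 of 23 had one, against 12 of 484 (2.48%). In CD4 cells the list median was -0.039, beside -0.036 over 483 genes. Selplg, which encodes a selectin ligand used in T cell homing, had -0.70 (SE 0.33, adjusted p = 0.992 with limma), with means of 5.72 ± 2.65 in EE and 9.71 ± 4.28 in SE. Arhgdib had -0.62 (SE 0.30) and Grap, a GRB2-like adaptor, had -0.74 (SE 0.40). On the higher side were Cd53 (0.33), Lat, the scaffold on which the receptor signal is assembled (0.40), and Cd37 (0.41), all within the spread. In CD8 cells the median was 0.12, beside 0.042 over 484 genes, with Arhgdib at 0.40, Selplg at 0.61 and Lgals1 at 0.53 on the higher side, and Lck at -0.52, Lat at -0.54 and Thy1 at -0.46 on the lower side, each with an adjusted p of 0.950.

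The difference between the EE effects in CD4 and in CD8 cells was then tested for the same list. It called 0 of 23 genes, against 0 of 485, with a list median of -0.15 beside -0.078 over 485 genes, and 2 of 23 had an unadjusted p under 0.05, against 12 of 485 (2.47%). These were Selplg (-1.31, SE 0.46) and Arhgdib (-1.03, SE 0.38), followed by Grap (-0.86). On the higher side the smallest p values were those of Lat (0.94), Lck (0.64) and Cd37 (0.78), and every adjusted p among these 6 genes was 0.976. In the comparison of first numbers within CD4 cells, added after the data were seen, 0 of 23 list genes were called, against 25 of 483 (5.18%), and 2 higher and 2 lower had an unadjusted p under 0.05, against 111 of 483 (23%) in either direction, with a list median of 0.077 beside -0.0072 over 483 genes.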

How the data were processed

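For 485 genes in 31 libraries the deposited values are normalised counts, a depth-scaled signal: the authors divided UMIs by the size factor of each library. Per the sources, they trimmed reads with cutadapt, mapped them with STAR 2.4.0a to mm10, counted UMIs with Drop-seq tools, removed genes of low abundance and CD4 samples with Cd8a or Cd8b transcripts, and normalised with DESeq2. UMI counts were recovered as whole multiples of one step per library (100% of values within a tolerance of 1e-05). Size factors recomputed from them differed by at most 4.93e-10 of their value, and no 2 libraries of a group agreed within sampling noise (chi-square per degree of freedom of 1.24 to 4.49 over 106 pairs).

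The main test was limma 3.58.1 on log2(normalised count + 1) (trended prior, two-sided). Benjamini-Hochberg adjustment covered every gene detected in any of the libraries compared, and the threshold was 0.05. Fold changes on this scale understate those of low genes. CD4 was compared with CD8 with the environment as a term. Alternatives were edgeR 4.0.16 and DESeq2 1.42.0 on the recovered counts, pseudocounts of 0.5 and 4, a mean of at least 5, rescaling to one total, the first title number, a replicate block and leaving out each library. The fits were also run on simulated data with set changes, which does not show their power for the differences seen here. Shares were compared by exact permutation tests and correlations by 100000 permutations, two-sided.

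Groups came from the sample titles. CD8 SE replicates 5 and 6 share an animal number in their titles, while their descriptions name animals 5 and 6, and they may not be independent. CD4 and CD8 pools with the same environment, first number and animal number were taken as 1 mouse. Deviations from group means correlated by -0.11 to 0.21 (median 0.067) over 11 such pairs of libraries from 10 mice. The median was 0.065 over 9 pairs without CD8 SE replicates 5 and 6. Over 50 pairs of the same environment and first number but another mouse, the correlations were -0.13 to 0.22 (median 0.032). The ranges nearly coincide, so the values do not show that the pairs are of 1 mouse. Members and gene lists were chosen with earlier results of these data known. From the signalling list, genes past the threshold and the 3 with the smallest p in each direction are named, and Lck was added. Loci are those of GENCODE M21 (GRCm38), the build of the counting.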

Additional observations from a re-analysis of the deposited data

Results flagged for a closer look

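Of 18 sets of values (a gene in a group) screened for a library far from the others, 3 were picked out. The rule picks about 1 in 20 sets where values are normally distributed. It was applied to normalised counts without the log2 step of the fits, so the number picked cannot be set against that rate. Each of the 3 sets had its highest library separated from the next by a gap that was large against the range of the group. Cd4 reached 18.9 in CD4 EE replicate 2, against 1.23 to 10.0 in the other 8 libraries, and without it the EE minus SE difference of Cd4 was 0.40 on the log2 scale. Ptprcap reached 17.6 in the same library, against 3.35 to 9.58, and without it the difference was 0.82. Cd8a reached 17.6 in CD8 SE replicate 3, against 2.07 to 8.64, and without it the difference was 0.32. All of these differences missed the threshold with and without the library.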

How the results depend on the processing

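Every gene here rests on few UMIs per library, which limits all values. Leaving out each library changed the number of genes called to between 0 and 1 of the 3 tested for CD4 against CD8 (1 without CD4 SE replicate 6 or 8). For first number 1 against 2 in CD4, it changed to between 0 and 1 of the 4 tested. That call was also 1 under the 6 other settings, Ptprc having an adjusted p of 0.0066 to 0.0315, and rescaling every library to one total moved the median of all genes there from -0.0072 to -0.12 and Ptprc to 0.96. Within number 1, 1 gene (Ptprc, 1.13) was called for CD4 against CD8. The Ptprcap share in CD4 cells had an unadjusted exact p under 0.05 within number 1 (24.0 points) and without CD4 SE replicate 6, but not after adjustment over the 3 shares (0.0519 and 0.102), and ranged from 11.9 to 21.3 points without single libraries. The counts of these genes called in the other comparisons did not change.

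Directions turned for values that were not called, and the cause was not tested. Within number 2, Ptprcap was -0.026 for EE minus SE in CD4, 0.71 in CD8, 0.046 for CD4 minus CD8 and -0.73 for the difference of EE effects, Ptprc was 0.068 for EE minus SE in CD8 and -0.14 for CD4 minus CD8, Sh2d2a was -0.62 for CD4 minus CD8 and 0.29 for the difference of EE effects, and the Ptprcap share in CD8 was 12.5 points. Within number 1, Sh2d2a was -0.0066 and Cd8a -0.041 for EE minus SE in CD8, and Sh2d2a 0.16 for the difference of EE effects. With edgeR and DESeq2, EE minus SE in CD8 was 0.14 and 0.087 for Ptprcap and 0.11 and 0.12 for Ptprc, and number 1 minus 2 was 0.24 and 0.29 for Cd4 in CD4 (0.0093 with a pseudocount of 4), 0.20 and 0.25 for Ptprcap in CD8 and 0.0045 with DESeq2 for Cd8a in CD8. With edgeR, Sh2d2a was -0.013 for CD4 minus CD8 and 0.040 for the difference of EE effects. Without single libraries, EE minus SE in CD8 ranged from -0.58 to 0.043 for Ptprcap, -0.17 to 0.20 for Ptprc, -0.023 to 0.71 for Sh2d2a and -0.11 to 0.34 for Cd8a, the difference of EE effects from -0.44 to 0.29 for Sh2d2a, and number 1 minus 2 from -0.26 to 0.14 for Cd4 in CD4, -0.44 to 0.46 for Ptprcap and -0.33 to 0.11 for Ptprc in CD8. The comparisons of first numbers were added after seeing the data.

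With the replicate block, EE minus SE in CD8 was -0.27 for Sh2d2a and -0.091 for Cd8a, and, with the mouse as the block, the difference of EE effects was 0.41 for Sh2d2a. EE and SE libraries share only a number, with correlations of -0.012 to 0.27 (median 0.070) over 6 pairs in CD4. Over 33 pairs in CD4 with the same first number but another animal number they were -0.15 to 0.39 (median 0.11). The block called 0 of the genes followed here in each comparison. With the mouse as the replicate block, Ptprc was 0.72 for CD4 minus CD8 (adjusted p = 0.198). When CD8 SE replicates 5 and 6 were paired with no CD4 pool, a setting added after seeing the data, it was 0.90 (adjusted p = 0.117), and the difference of EE effects was 0.11 for Sh2d2a. Neither block changed a call.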
